A study of Homo sapiens with 8 samples.

Results

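Embryoid bodies (EB) made from H9, an established line of human embryonic stem cells, were compared with EB made from H1, another such line, over all autosomal genes that had a probe set annotated to a single gene symbol. These are 18987 of the 19775 genes the arrays represent in this way, and 13529 of them were bright enough to be tested. RNA of 8 samples was measured on Affymetrix Human Genome U133 Plus 2.0 arrays, 1 array a sample, with 2 samples of each line as EB and 2 as undifferentiated cells. Undifferentiated H1 and H9 cells grew in mTeSR1, a defined medium for pluripotent cells, and served here as background. EB of both lines were made from cells dissociated with Accutase and kept for 3 days on ultra low attachment plates in hESGM without bFGF and with 10 µM Y-27632, a compound that helps dissociated stem cells survive. The labels call the arrays of a group biological replicates without naming their cultures, so a p-value measures the spread between these samples, which may be partly technical.

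An embryoid body is a floating aggregate in which pluripotent cells leave self-renewal and take up early embryonic fates in a loosely ordered way. Outer cells often become extraembryonic or visceral endoderm, which makes the same carrier proteins as yolk sac and fetal liver, while inner cells move toward ectoderm, including neural plate and neural crest, or toward mesoderm. The balance between these fates is set by BMP, NODAL, WNT and FGF signals and is known to differ between stem cell lines.

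Values are MAS5 intensities on a linear scale, which the authors had scaled so that every array had a 2% trimmed mean of 499.9, and array medians lay between 68.7 and 86.0. Differences are H9-labelled EB minus H1 EB on the scale log2(intensity + 16) with their standard error (SE), a fold is 2 to the power of that difference, and folds of weak genes are understated. Values of a group are given for its replicates 1 and 2, H1 EB before H9-labelled EB where joined by "against". A gene is called when its Benjamini-Hochberg adjusted p in limma is under 0.05, with adjustment over the 14056 tested genes of all chromosomes, and a gene is dim in a group when both arrays are below their own median. Across tested genes the 4 correlations between an H1 EB and an H9-labelled EB array were 0.9821 to 0.9829, below the 0.9919 and 0.9923 within the EB groups, although genes are not independent replicates.

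A check of line identity did not match the labels in 2 of the 8 libraries. The arrays labelled H9 EB are called H9-labelled EB throughout, and every direction given for H9 rests on that label. For a few autosomal genes the EB arrays labelled H9 stood between the lines. CRYZ, which encodes the enzyme and lens protein zeta-crystallin, read 3729 and 3949 in undifferentiated H1, 50.1 and 30.1 in undifferentiated H9, 4469.5 and 4198 in H1 EB and 1406 and 1384 in H9-labelled EB. It was thus near the floor in undifferentiated H9 and far above it in the EB carrying the same label. A total of 5 genes were silent in undifferentiated H9 and steady in H1 between states (CRYZ, TYW3, TRIM61, CXCL11 and ZNF680), with limits set after this pattern had been seen. Above the undifferentiated H9 level, H9-labelled EB held 18.4% to 31.6% of the H1 EB level of these genes, with a median of 25%. In the other direction the zinc finger gene ZNF717 was silent in H1. Above the H1 EB level, H9-labelled EB held 53.6% of its undifferentiated H9 level. What part this has in any line difference below was not tested, and since both H9-labelled EB arrays are needed for the comparison they cannot both be left out.

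The comparison called 2025 of the 13529 tested autosomal genes, 15.0% of them. Of these, 1047 (7.74%) were higher in H9-labelled EB and 978 (7.23%) were lower, and all 2025 had H9-labelled EB arrays that did not overlap the H1 EB arrays. Groups without overlap were common: 8255 genes (61.0%) had them, 4436 (32.8%) with H9-labelled EB higher and 3819 (28.2%) with it lower. The shares 7.74% and 7.23% are the background for every count of members called in EB given below. For counts of members without overlap it is 32.8% and 28.2%. For members called in undifferentiated cells it is 13.5% of tested genes higher in H9 and 12.5% lower. Differences were mostly small. A size of at least 1 on the log2 scale was reached by 53 called genes that were higher (0.392%) and 81 that were lower (0.599%), and the median difference over all tested genes was 0.013. Leaving out 1 EB array reduced the calls: 361 higher and 328 lower without H1 EB replicate 1, 429 and 421 without H1 EB replicate 2, 303 and 352 without H9-labelled EB replicate 1, and 401 and 446 without H9-labelled EB replicate 2.

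Genes for proteins that yolk sac and fetal liver secrete were lower in H9-labelled EB, and of the 30 gene lists described here theirs had the median farthest from 0. Of 25 such genes listed, 24 were autosomal with a single symbol and 23 were tested, of which 17 were called lower in H9-labelled EB, 1 was called higher and 5 were not called. The median difference was -1.26 against 0.013 over all tested genes. H9-labelled arrays lay wholly below the H1 arrays in 22 of the 23, against 28.2% of all tested genes. In undifferentiated cells the same genes had a median line difference of 0.13, and 18 of them were called in the test of whether the line difference itself differed between EB and undifferentiated cells, a test that called 22.7% of all genes. The list was chosen with earlier results of these data known, and so these counts are a description. In bulk RNA, fewer cells of a type and less RNA per cell cannot be told apart.

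Promoters of 4 of these genes of yolk sac and liver are printed as examples. These 4 carry letters of the kind that liver-type factors are known to bind, which promoters of many other list genes do not. Sequences are from RefSeq on GRCh38.p14, from 250 bases before to 50 bases after the gene's start, 5′ to 3′ on the gene's own strand, with motif matches in capitals.
AHSG (chr3:186612810-186613109, plus strand): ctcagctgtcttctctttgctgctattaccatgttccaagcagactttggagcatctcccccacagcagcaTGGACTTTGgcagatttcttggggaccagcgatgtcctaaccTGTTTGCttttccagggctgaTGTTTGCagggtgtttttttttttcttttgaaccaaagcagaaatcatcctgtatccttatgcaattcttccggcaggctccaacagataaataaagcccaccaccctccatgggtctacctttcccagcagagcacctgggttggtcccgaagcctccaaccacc
FABP1 (chr2:88128013-88128312, minus strand): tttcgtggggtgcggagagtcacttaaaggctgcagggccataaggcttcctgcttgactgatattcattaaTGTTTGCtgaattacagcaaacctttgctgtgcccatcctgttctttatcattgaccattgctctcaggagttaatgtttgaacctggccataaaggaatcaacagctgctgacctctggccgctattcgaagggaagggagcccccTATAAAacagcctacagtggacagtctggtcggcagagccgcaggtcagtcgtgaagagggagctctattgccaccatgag
AFP (chr4:73435971-73436270, plus strand): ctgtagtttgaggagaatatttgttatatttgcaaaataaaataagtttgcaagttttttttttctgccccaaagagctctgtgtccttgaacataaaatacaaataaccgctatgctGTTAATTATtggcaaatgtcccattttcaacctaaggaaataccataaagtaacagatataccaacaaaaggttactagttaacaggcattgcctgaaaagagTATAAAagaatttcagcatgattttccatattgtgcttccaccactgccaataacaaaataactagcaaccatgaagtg
FGA (chr4:154590693-154590992, minus strand): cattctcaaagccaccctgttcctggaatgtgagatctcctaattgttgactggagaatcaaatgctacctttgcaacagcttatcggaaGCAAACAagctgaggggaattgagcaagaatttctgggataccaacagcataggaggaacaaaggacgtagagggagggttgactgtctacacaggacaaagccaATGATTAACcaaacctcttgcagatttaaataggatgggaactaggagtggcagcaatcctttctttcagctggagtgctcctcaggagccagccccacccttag
Capitals mark matches on either strand to GTTAATNAT (an arm of the palindromic HNF1 site with letters beside it), CAAAGTCCA (HNF4), TGTTTAC or TGTTTGC (FOXA) and TATAAA (the TATA box), chosen after other spellings had been looked at in these promoters. TGTTTGC was in 6 of the 29 promoters of the 21 list genes with an entry, and in 3.89% of all 35116 promoters. The 6 were those of AHSG, AMBP, FABP1, FGA, SERPINA1 and VTN, of which AMBP was not called and VTN was not tested. GTTAATNAT was in those of AFP, ALB and FGA and in 0.792% of all, CAAAGTCCA in that of AHSG and in 0.384%, TGTTTAC in that of APOA2 and in 3.42% of all, and TATAAA in those of AFP, FABP1, MTTP and RBP4 and in 11.5%. None of the HNF1, HNF4 and FOXA spellings was in promoters of TF, MTTP, FGB, FGG, APOM, CUBN, RBP4, APOA4, SERPINA5, APOH, APOE or APOC1. The spellings do not overlap one another in the 4 promoters printed, and a match describes letters and is not a measured binding site.

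Among the serum carriers, AHSG, the fetal plasma protein fetuin-A whose promoter heads the set above, had intensities of 1982 and 1884 in H1 EB and 220.2 and 233 in H9-labelled EB. The groups were far apart, with a difference of -3.00 ± 0.15 (SE, adjusted p = 2.19e-06), an 8.03-fold lower level in H9-labelled EB. TF, the iron carrier transferrin, read 1949.6 and 2128 against 259.7 and 281, a difference of -2.84 ± 0.30 (adjusted p = 2.98e-04). Undifferentiated cells of both lines were near the floor for TF, at 35.9 and 13.6 in H1 and 4.72 and 19 in H9. AFP, alpha-fetoprotein, the main serum protein of yolk sac, stood at 14680 and 14454 in H1 EB and 6039.7 and 6117 in H9-labelled EB, and it was lower by 2.39-fold (adjusted p = 1.67e-05). RBP4, the plasma carrier of retinol, read 2829 and 3282 against 827 and 847 (difference -1.84 ± 0.17, adjusted p = 1.24e-04). All of these genes had risen far above undifferentiated levels in both EB groups, and less far in H9-labelled EB. ALB, albumin, which follows AFP later in development, was at 186 and 177 in H1 EB and below the array median in H9-labelled EB at 43.5 and 40.5. This makes it at least 1.95-fold lower (adjusted p = 0.00723).

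Apolipoproteins did not all differ to the same degree. APOA4 read 2396 and 2204 in H1 EB and 526 and 409 in H9-labelled EB (difference -2.27 ± 0.27, adjusted p = 7.05e-04). APOC3, its neighbour in the APOA1-APOC3-APOA4-APOA5 cluster, read 1171 and 1318 against 208 and 198 (difference -2.52 ± 0.30, adjusted p = 6.45e-04). APOA1, in the same cluster, was at 13679 and 14293 against 11436 and 10885, and its difference of -0.33 ± 0.27 was not called (adjusted p = 0.481). Probe sets with the suffix _x_at, which may also pick up related transcripts, read APOA1 and APOC1, and further on NOTCH2, TUBB3, GAPDH, IFITM3, HLA-DQB1, ZNF680 and ZNF107. The other probe set of APOC1 was called in the opposite direction, and averaged over both the gene was not called (adjusted p = 0.915). The further called apolipoproteins were APOA2 (-0.41), APOB (-0.58), APOC1 (-0.44) and APOM (-0.69), all lower by less than 1 on the log2 scale. MTTP, which loads lipid onto APOB, was lower at 504 and 524 against 1270 and 1216 in H1 EB (difference -1.25 ± 0.21, adjusted p = 0.00352). APOE went the other way, with 8051 and 8344 in H1 EB and 9850.2 and 9139 in H9-labelled EB (difference 0.21 ± 0.055, adjusted p = 0.0281). APOE was already bright in undifferentiated cells, at 6360.4 and 6556 in H1 and 6634 and 6239.9 in H9.

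The 3 fibrinogen chains, encoded by neighbouring genes and joined in a single clotting protein, were lower by like amounts. FGA read 2403 and 2444 in H1 EB and 901 and 769 in H9-labelled EB. FGB read 5087 and 4905 against 1675 and 1641, and FGG 2505 and 2537 against 901 and 927. None of the 3 overlapped between the lines. Their differences were -1.52, -1.58 and -1.45, with adjusted p of 8.36e-05, 6.87e-05 and 6.16e-04. SERPINA1, the protease inhibitor alpha-1 antitrypsin, was at 2217 and 2104 against 418 and 415 (difference -2.33 ± 0.20, adjusted p = 8.36e-05). FABP1, the liver fatty acid carrier, was at 787 and 866 against 185 and 221 (difference -1.95 ± 0.25, adjusted p = 9.42e-04). The 5 members not called were TTR, APOA1, SERPINA5, AMBP and CUBN, whose H9-labelled arrays also lay below the H1 arrays. TTR, the thyroid hormone carrier transthyretin, had the widest gap of these at 10477 and 10555 against 4999.7 and 5292 (difference -1.03 ± 0.47, adjusted p = 0.203). Its undifferentiated arrays, which enter the same estimate of spread, ran from 94 and 23 in H1 to 119 and 210.2 in H9.

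**Figure D1:**
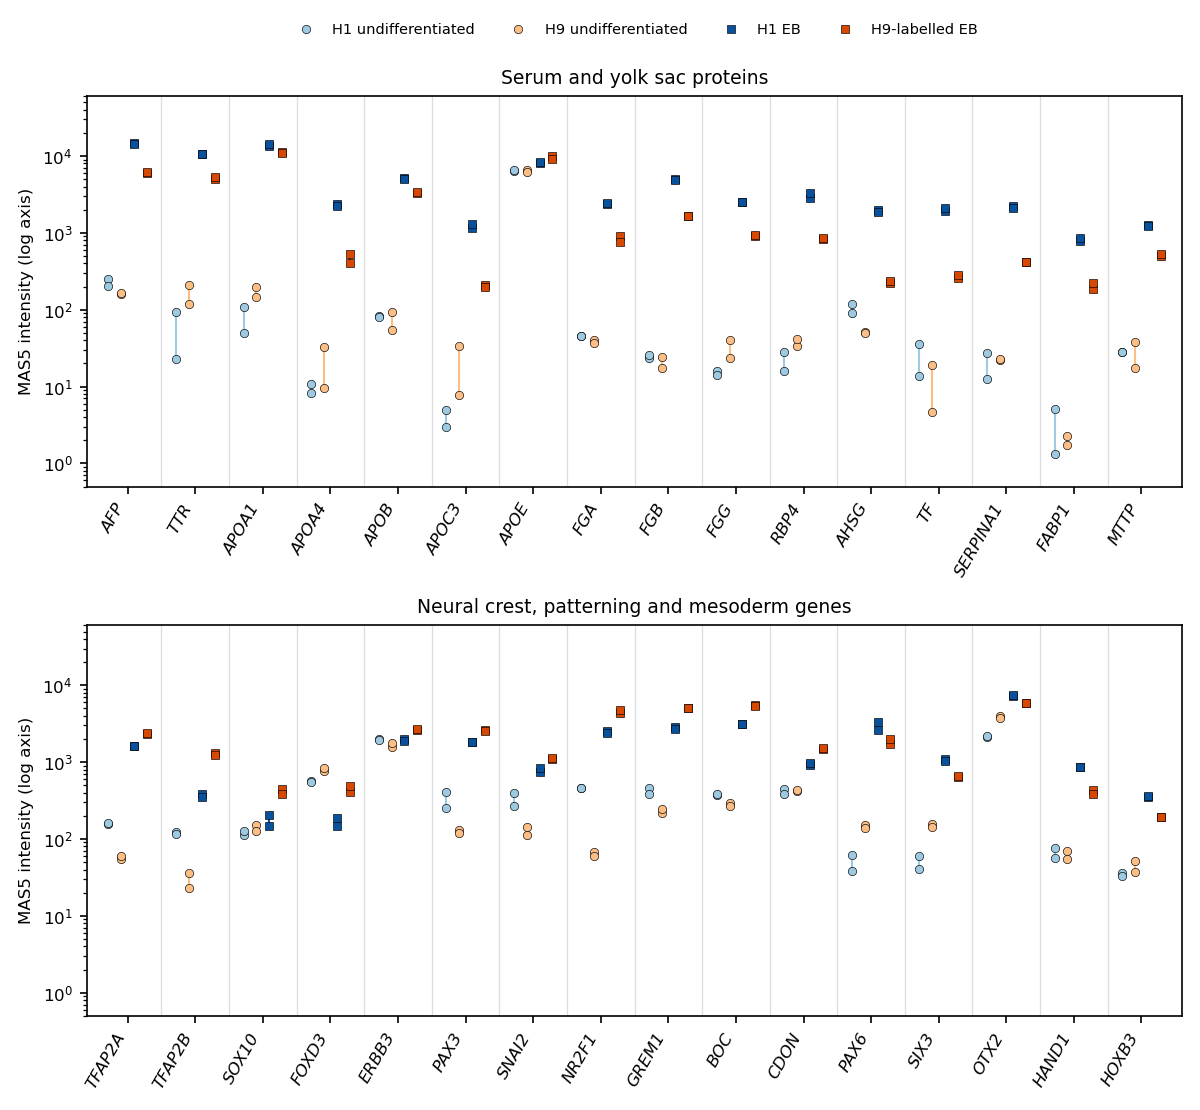
MAS5 intensity (log axis) of 16 serum and yolk sac protein genes and, in the lower panel, of 16 crest, patterning and mesoderm genes on each of the 8 arrays, circles for undifferentiated cells and squares for EB, with a line joining the 2 arrays of a group. In the upper panel H9-labelled EB lie below H1 EB for every gene but APOE; AHSG, for one, reads 1982 and 1884 in H1 EB and 220.2 and 233 in H9-labelled EB.

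With 1 EB array left out, between 14 and 15 members of the list were still called lower, and calls were lost for ALB without either H1 EB array (adjusted p up to 0.0771), APOA2 without any single EB array (up to 0.156), APOB without any single EB array (up to 0.188) and APOE without H1 EB 1, H1 EB 2 or H9-labelled EB 1 (up to 0.21). Without probe sets of the suffixes _x_at and _s_at, 12 members were left to test and 5 were called lower. SERPINA1 and FABP1 then rested on other probe sets and lost their calls (adjusted p of 0.108 and 0.184), as did FGA (0.0591), and AHSG, TF, APOC3 and RBP4 had no such probe set to test.

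Other genes outside the list had large differences in the same direction. SERPIND1, LGALS2, SLC39A2 and SULT2A1 were bright enough to be tested only through the H1 EB arrays, where they were high. SERPIND1, the clotting inhibitor heparin cofactor II, was at 142 and 127 in H1 EB and dim in H9-labelled EB, at least 1.49-fold lower (adjusted p = 0.0291). LGALS2, a galectin of the gut lining, was at least 1.87-fold lower (167 and 180.4 against 11.6 and 20.2, adjusted p = 0.00352), and SLC39A2, a zinc transporter, at least 1.64-fold (adjusted p = 0.0133). SULT2A1, a sulfotransferase of liver and adrenal, was at least 1.8-fold lower (adjusted p = 0.00946). MMP1, the interstitial collagenase, read 787 and 849 in H1 EB and 213 and 194 in H9-labelled EB (difference -1.92 ± 0.25, adjusted p = 0.00104). A further 3 were picked after their values had been seen, and all 3 kept their call with each EB array left out. AKR1D1, a bile acid enzyme, read 1376 and 1353 against 443 and 457 (difference -1.57, adjusted p = 0.00154). SLC3A1, an amino acid transporter of kidney and gut, read 548 and 509 against 194 and 205 (difference -1.34, adjusted p = 9.17e-04), and TFF1, a trefoil protein of mucous epithelium, 2211 and 2188 against 916 and 1002 (difference -1.19, adjusted p = 0.00112). Of the genes before these, calls were lost for SERPIND1 without H1 EB 1, H1 EB 2 or H9-labelled EB 1 (adjusted p up to 0.187), SLC39A2 without H1 EB 1, H1 EB 2 or H9-labelled EB 1 (up to 0.106) and SULT2A1 without H1 EB 1 or H9-labelled EB 1 (up to 0.124).

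Transcription factors of endoderm, the tissue that makes such proteins, were mostly not called. Of 17 tested endoderm factors and surface markers, 4 were called lower, 1 was called higher and 12 were not called, with a median of -0.22. Among the 4 was OTX2 (-0.35, adjusted p = 0.00234), which is also on the neuroectoderm list and is described with it. The H9-labelled arrays lay wholly below the H1 arrays in 12 of the 17 and wholly above in 2. Over all genes these shares were 28.2% and 32.8%. GATA6, a factor of primitive and definitive endoderm, read 3250.5 and 3208 in H1 EB and 1992 and 2062 in H9-labelled EB (difference -0.67 ± 0.16, adjusted p = 0.0172). SOX7, a factor of parietal endoderm and vessels, read 236 and 242 against 149 and 113 (difference -0.81 ± 0.18, adjusted p = 0.0136). FOXA1, a pioneer factor of gut and liver, read 247 and 315 against 155 and 105 (difference -1.04 ± 0.27, adjusted p = 0.0267). The groups did not overlap for any of the 3, but GATA6 lost its call when all its probe sets were averaged. SOX17, the definitive and extraembryonic endoderm factor, was at 1214 and 1331 in H1 EB and 1060.5 and 1059 in H9-labelled EB, a difference of -0.26 ± 0.15 that was not called (adjusted p = 0.28). CXCR4, a receptor used to sort definitive endoderm, overlapped between the lines at 5376 and 5319.5 against 5475 and 5070.3 (adjusted p = 0.922). CLDN6, a tight junction protein of early epithelia, was the member that was higher, at 2752 and 3138 in H9-labelled EB against 1589 and 1634 (difference 0.86 ± 0.073, adjusted p = 7.77e-05), and it was also higher in undifferentiated H9. With an EB array left out, calls were lost for GATA6 without any single EB array (adjusted p up to 0.107), SOX7 without H1 EB 1, H1 EB 2 or H9-labelled EB 2 (up to 0.101) and FOXA1 without any single EB array (up to 0.196).

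Neural crest is the migratory cell population that leaves the border of the neural plate, and some of its genes were higher in H9-labelled EB. Of 19 tested crest and border genes, 5 were called higher and 0 lower, against 7.74% of all tested genes called higher, and the median was 0.45. The H9-labelled arrays lay wholly above the H1 arrays in 11 of the 19 and wholly below in 6, against 32.8% and 28.2% of all genes. Members given with values in the next paragraph all had higher H9-labelled arrays. The 6 that lay wholly below were not called, and 14 of the 19 in all were not called. In undifferentiated cells the list pointed the other way, with 11 members called lower in H9 and a median of -0.56.

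TFAP2B, an AP-2 factor of crest and its derivatives, read 387 and 355 in H1 EB and 1308 and 1230 in H9-labelled EB. Its difference was 1.73 ± 0.16 (adjusted p = 1.34e-04), against -1.58 in undifferentiated cells, where it read 122 and 115 in H1 and 36 and 23 in H9. FOXD3, which marks both pluripotent cells and early crest, was at 149 and 185 in H1 EB and 415 and 494 in H9-labelled EB (difference 1.36 ± 0.13, adjusted p = 1.41e-04). Both EB groups lay below the undifferentiated arrays for FOXD3, which read 564 and 545 in H1 and 777 and 850.4 in H9. SOX10, the factor of migrating crest and glia, was at 146 and 206 in H1 EB and 448 and 386 in H9-labelled EB (difference 1.19 ± 0.19, adjusted p = 0.00278), with 111 and 126 against 154 and 127 in the undifferentiated lines. TFAP2A (1607 and 1619.9 against 2336 and 2396, difference 0.55, adjusted p = 0.00556) was called as well. So was ERBB3, a neuregulin receptor of crest-derived glia (1996 and 1876 against 2641 and 2658, difference 0.45, adjusted p = 0.00234). PAX3, SNAI2 and TWIST1 had H9-labelled arrays above the H1 arrays, with differences of 0.51, 0.48 and 0.52 that were not called (adjusted p of 0.0685, 0.084 and 0.0534). The calls of TFAP2B, FOXD3 and SOX10 held with each EB array left out and under every other alternative in which they were tested. With all probe sets of a gene averaged, FOXD3 and SOX10 were not bright enough to be tested. The call was lost for TFAP2A without H1 EB 1, H9-labelled EB 1 or H9-labelled EB 2 (adjusted p up to 0.0572), and averaging all probe sets of a gene left 2 of the 19 called, without TFAP2A and ERBB3 (adjusted p of 0.287 and 0.883).

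Neural plate genes were called in both directions. Of 30 tested neuroectoderm genes, 5 were called higher in H9-labelled EB (NR2F1, GBX2, IRX2, NES and SOX2) and 3 lower (SIX3, PAX6 and OTX2), with a median of -0.13. NR2F1, the nuclear receptor COUP-TFI, read 2531 and 2388 in H1 EB and 4356 and 4807 in H9-labelled EB (difference 0.89 ± 0.089, adjusted p = 1.88e-04). Undifferentiated cells showed the reverse order for NR2F1, with 467 and 454 in H1 and 67.3 and 60.8 in H9. GBX2, which positions the front of the hindbrain, was dim in H1 EB at 32.2 and 54.3 and read 127 and 129.9 in H9-labelled EB, at least 1.45-fold higher (adjusted p = 0.0318). On the other side, SIX3, a factor of forebrain and eye, read 1083 and 1042 in H1 EB and 648 and 658 in H9-labelled EB (difference -0.69 ± 0.15, adjusted p = 0.0135). PAX6, of forebrain and eye as well, was at 3295 and 2616 against 1719 and 2010.4 (difference -0.65 ± 0.18, adjusted p = 0.0322). OTX2, of fore- and midbrain, was at 7355 and 7435 against 5824 and 5801 (difference -0.35 ± 0.053, adjusted p = 0.00234). All 3 were called higher in undifferentiated H9 than in H1. RAX2, a homeobox gene of retina, was dim in H9-labelled EB at 16.7 and 2.59 and read 98.6 and 92.4 in H1 EB, at least 1.1-fold lower (adjusted p = 0.01). SOX1, the early neural plate factor, differed by -0.15 ± 0.12 and was not called (adjusted p = 0.438). NES had a second probe set that was called lower, and with all probe sets averaged neither NES nor IRX2 was called (adjusted p of 0.410 and 0.562). Calls were lost, with an EB array left out, for GBX2 without any single EB array (adjusted p up to 0.198), SIX3 without any single EB array (up to 0.102), PAX6 without any single EB array (up to 0.228), RAX2 without H1 EB 1, H1 EB 2 or H9-labelled EB 2 (up to 0.0719), NES without any single EB array (up to 0.0891) and SOX2 without H1 EB 1 or H9-labelled EB 1 (up to 0.0947).

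Genes of later neurons were mostly not called. Of 18 tested, ONECUT2, a cut homeobox factor, and TUBB3, neuronal beta-tubulin, were called higher and 0 were called lower. ONECUT2 read 105 and 91.7 in H1 EB and 214 and 229 in H9-labelled EB (difference 1.06 ± 0.20, adjusted p = 0.00659), while TUBB3 differed by 0.19. HOX genes and their TALE partners, which give position along the body axis, were called lower in 2 of 16 tested and higher in 0, with a median of -0.30. HOXB3, a hindbrain gene, read 353 and 359 in H1 EB and 195 and 194 in H9-labelled EB (difference -0.82 ± 0.21, adjusted p = 0.0235). HOXC6 was dim in H9-labelled EB at 58.5 and 73.6 against 244 and 237, at least 2.53-fold lower (adjusted p = 0.0191). With an EB array left out the calls were lost for HOXB3 without any single EB array (adjusted p up to 0.137), HOXC6 without any single EB array (up to 0.119), ONECUT2 without H1 EB 2 or H9-labelled EB 2 (up to 0.0546) and TUBB3 without H1 EB 1, H1 EB 2 or H9-labelled EB 1 (up to 0.156).

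Mesoderm genes were mostly not called. Of 10 tested primitive streak genes, NODAL alone was called, and TBXT, the streak factor brachyury, was not, at 296 and 220.2 in H1 EB and 207 and 249 in H9-labelled EB (adjusted p = 0.678). Among 19 mesoderm and cardiovascular genes, 2 were called lower and 0 higher. HAND1, a factor of heart, lateral mesoderm and extraembryonic tissue, read 857 and 857 in H1 EB and 428 and 387 in H9-labelled EB (difference -1.05 ± 0.17, adjusted p = 0.00295). Neither undifferentiated line had raised HAND1, at 56 and 75.3 in H1 and 54.7 and 69 in H9. ACTC1, cardiac actin, was lower by 1.49-fold in H9-labelled EB and by a like amount in undifferentiated H9 (differences -0.57 and -0.62, adjusted p of 3.63e-04 and 6.25e-05). KDR, the VEGF receptor of early mesoderm, differed by 0.12 ± 0.077 and was not called (adjusted p = 0.321).

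Of 17 tested trophoblast and amnion genes, 5 were called lower and 2 higher, with a median of -0.22. IGFBP3, a binding protein of insulin-like growth factors, read 1451 and 1602 in H1 EB and 634 and 605 in H9-labelled EB (difference -1.28 ± 0.12, adjusted p = 1.14e-04). SLC40A1, the iron exporter ferroportin, was at 747 and 743 against 387 and 433 (difference -0.84 ± 0.19, adjusted p = 0.0147), and EPAS1 (-0.83), TBX3 (-0.64) and HAND1 were the rest. TBX3 lost its call when all its probe sets were averaged (adjusted p = 0.562). GATA3, a leading factor of trophoblast, was at 2112 and 2155 in H1 EB and 1673 and 1789 in H9-labelled EB and was not called (adjusted p = 0.17). Surface ectoderm and keratin genes were mixed, with 4 of 18 called higher and 3 lower. CLDN4 was at 200.3 and 229 against 325 and 358 (difference 0.63 ± 0.13, adjusted p = 0.0105), whereas the desmosome gene PKP3 was at 355 and 348 against 225 and 238 (difference -0.57 ± 0.14, adjusted p = 0.0208). KRT5, a basal keratin, was dim in H1 EB and at least 1.27-fold higher in H9-labelled EB (adjusted p = 0.042). Calls were lost for NODAL without any single EB array (adjusted p up to 0.157), SLC40A1 without any single EB array (up to 0.124), TBX3 without H1 EB 2 or H9-labelled EB 1 (up to 0.0721), CLDN4 without H1 EB 1 or H9-labelled EB 2 (up to 0.0857), PKP3 without any single EB array (up to 0.115) and KRT5 without H1 EB 2, H9-labelled EB 1 or H9-labelled EB 2 (up to 0.259).

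**Figure D2:**
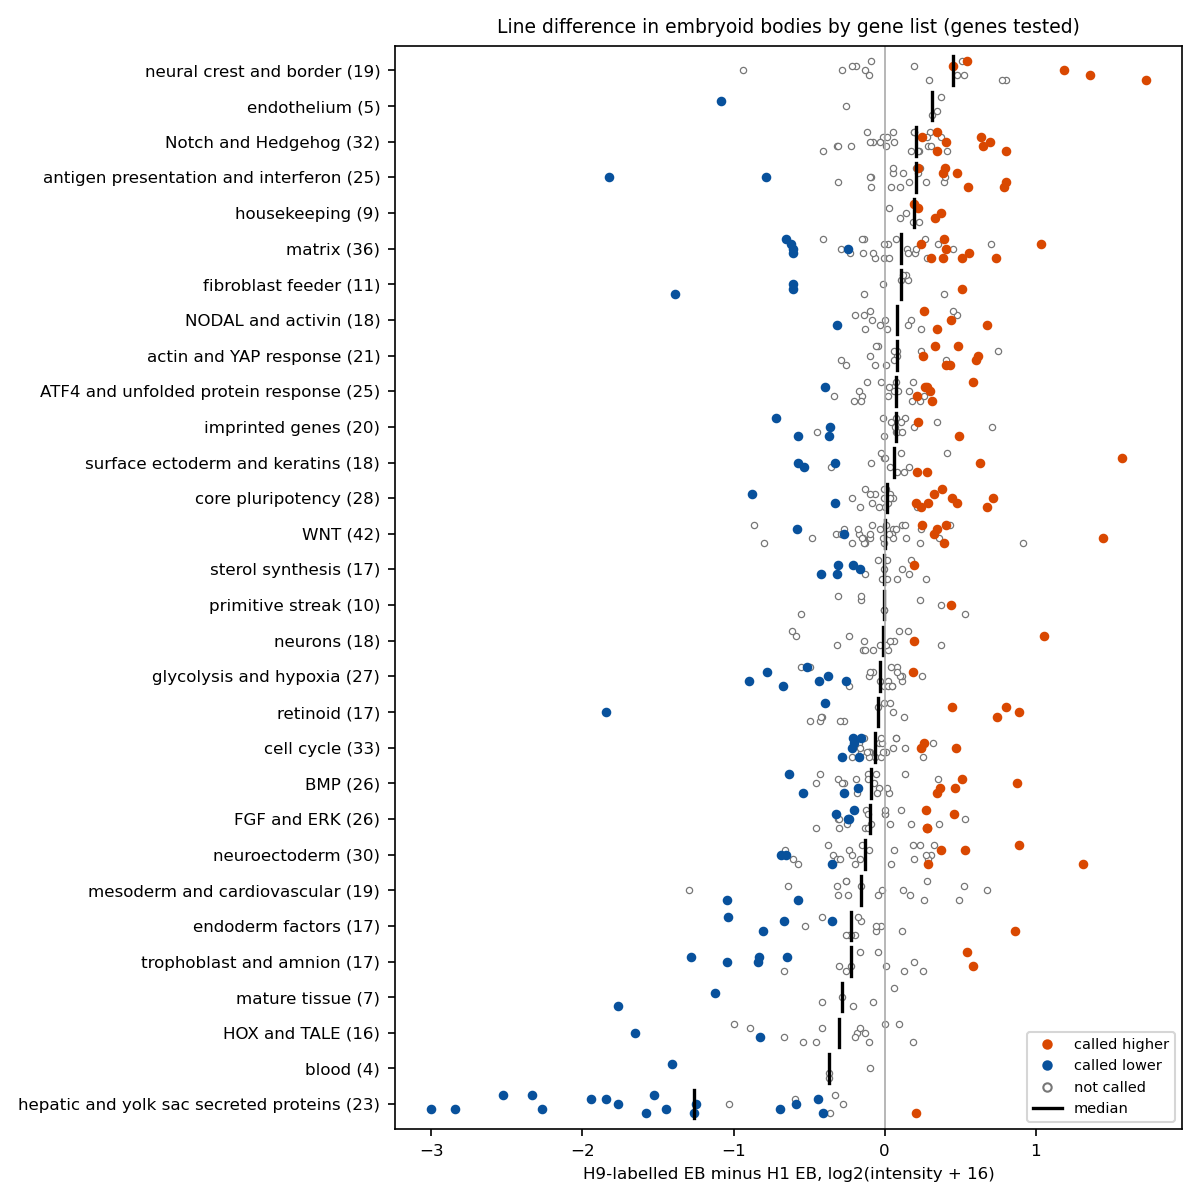
Line difference in EB (H9-labelled EB minus H1 EB, log2(intensity + 16), x axis) for each tested gene of the 30 lists, with orange points for genes called higher, blue points for genes called lower, open points for genes not called and a bar at each list's median. The list of secreted hepatic and yolk sac proteins has its median at -1.26 and the crest list at 0.45, while 25 of the 30 lists have theirs within 0.3 of 0.

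Pluripotency genes, the markers of the starting cells, were mostly not called or slightly higher in H9-labelled EB. Of 28 tested pluripotency genes, 9 were called higher and 2 lower, and the median was 0.02. NANOG read 4789 and 4409 in H1 EB and 4703 and 4534 in H9-labelled EB, which overlap, with a difference of 0.007 ± 0.056 (adjusted p = 0.951). LIN28A, an RNA-binding protein that blocks let-7, read 19522 and 18493 against 19859 and 18778, also overlapping (difference 0.023, adjusted p = 0.829), although quantile normalization turned it to -0.14 with an adjusted p of 0.0433. SOX2, shared by pluripotent and neural cells, was higher at 17928 and 16860 in H9-labelled EB against 13976 and 14519 (difference 0.29 ± 0.06, adjusted p = 0.0102), but the mean over its probe sets turned to -0.054. DNMT3B, the de novo DNA methyltransferase, was at 15223 and 16401 against 22469 and 21577 (difference 0.48 ± 0.049, adjusted p = 2.31e-04). PRDM14, a repressor that guards pluripotency, was at 839 and 797 against 1357 and 1355 (difference 0.72 ± 0.14, adjusted p = 0.0101). The non-coding RNA LINC00458 went down, from 1367 and 1323 in H1 EB to 737 and 709.8 in H9-labelled EB (difference -0.88 ± 0.06, adjusted p = 1.55e-05), whereas undifferentiated H9 held more of it than H1. Calls were ended by leaving out an EB array for SOX2 without H1 EB 1 or H9-labelled EB 1 (adjusted p up to 0.0947) and PRDM14 without any single EB array (up to 0.0664).

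Signalling genes were called in both directions. In the NODAL and activin list, 4 of 18 were called higher and 1 lower. NODAL, the ligand, read 696 and 645 in H1 EB and 909 and 917 in H9-labelled EB (difference 0.44 ± 0.12, adjusted p = 0.0313), against 1226 and 1106 against 386 and 501 in undifferentiated H1 and H9. The line with more NODAL changed between states, and the difference of differences was 1.81 (adjusted p = 7.27e-05). LEFTY1, a NODAL target and inhibitor, followed the same order, at 202 and 243 against 351 and 378 in EB (difference 0.68 ± 0.13, adjusted p = 0.00628) and 1668 and 1449 against 929 and 1132 before. FST, follistatin, which binds activin, was bright in both EB groups at 10608 and 10582 against 13502 and 13409 (difference 0.34, adjusted p = 0.00279). The calls were lost, with an EB array left out, for NODAL without any single EB array (adjusted p up to 0.157) and LEFTY1 without H1 EB 1 (up to 0.0596).

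In the BMP list 5 of 26 were called higher and 4 lower. The inhibitor GREM1, gremlin, was among the former, with 2854 and 2678 in H1 EB and 5110.4 and 5053 in H9-labelled EB (difference 0.87 ± 0.10, adjusted p = 3.46e-04) and the reverse order before differentiation (466 and 388 in H1, 215 and 242 in H9). The target ID1 was higher as well, at 14343 and 13455 against 9513 and 9973 (difference 0.51 ± 0.053, adjusted p = 2.58e-04), and lies in the chromosome 20 stretch described further on. Lower were the ligand BMP6, at 741 and 676 in H1 EB and 467 and 496 in H9-labelled EB (difference -0.54 ± 0.12, adjusted p = 0.0157), and the effector SMAD9, at 2163 and 1988 against 1324 and 1344 (difference -0.63 ± 0.10, adjusted p = 0.00246). BMP4 was at 530.2 and 600.2 against 512 and 399.8 and was not called (adjusted p = 0.742). Among these the call was lost for BMP6 without any single EB array (adjusted p up to 0.131), and SMAD9 lost its call when all its probe sets were averaged (adjusted p = 0.061).

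Of 32 tested Notch and Hedgehog pathway genes, 8 were called higher in H9-labelled EB and 0 lower, with a median of 0.21. In 20 of them the H9-labelled arrays lay wholly above the H1 arrays and in 4 wholly below, against 32.8% and 28.2% of all genes. BOC, a Hedgehog co-receptor, read 3165 and 3124 in H1 EB and 5566 and 5445 in H9-labelled EB (difference 0.80 ± 0.071, adjusted p = 9.06e-05), and its relative CDON 921 and 969 against 1479 and 1508 (difference 0.65 ± 0.10, adjusted p = 0.0019). NOTCH2 was at 3322 and 3572 against 5519 and 5245 (difference 0.64 ± 0.067, adjusted p = 2.62e-04), and NOTCH1 at 645 and 496 against 886 and 973 (difference 0.70 ± 0.18, adjusted p = 0.0259). Some transcripts that these pathways are known to induce were not called: HES1 differed by -0.014, HEY1 by 0.018, HES5 by -0.31 and PTCH1 by -0.10, with adjusted p of 0.95, 0.897, 0.186 and 0.46. Averaging all probe sets of a gene left 2 of the 8 calls and ended those of BOC and CDON (adjusted p of 0.300 and 0.185), and with an EB array left out 4 to 5 members were called, a loss that took in NOTCH1 without H1 EB 2, H9-labelled EB 1 or H9-labelled EB 2 (adjusted p up to 0.154).

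In the WNT list 6 of 42 were called higher and 2 lower. WNT4 read 161 and 141 in H1 EB and 491 and 389.9 in H9-labelled EB, with faint values before differentiation (42.2 and 27.1 in H1, 11.5 and 44.1 in H9), and differed by 1.44 ± 0.34 (adjusted p = 0.0186). WLS, which escorts WNT proteins out of the cell, was at 7207 and 6749.9 against 9281 and 9227 (difference 0.41 ± 0.083, adjusted p = 0.00941). AXIN2, a general WNT target, was at 2240.2 and 2169 against 2776 and 2766 (difference 0.33 ± 0.063, adjusted p = 0.00674). Averaging all probe sets ended the call of AXIN2 (adjusted p = 0.724). The secreted inhibitor WIF1 was lower, at 349.9 and 388 in H1 EB and 229 and 255 in H9-labelled EB (difference -0.58 ± 0.12, adjusted p = 0.0117). Of 26 FGF and ERK genes 4 were called higher and 4 lower. SPRY4 and EGR1 were higher by 0.28 and 0.46, SPRY1 and DUSP6 lower with differences of -0.32 and -0.24 (adjusted p of 0.0342, 0.0333, 0.0135 and 0.0278); all 4 are known to follow ERK activity. Losses with an EB array left out were WNT4 without any single EB array (adjusted p up to 0.137), WLS without H1 EB 2, H9-labelled EB 1 or H9-labelled EB 2 (up to 0.0762), AXIN2 without H1 EB 2 or H9-labelled EB 1 (up to 0.0577), WIF1 without H1 EB 2 or H9-labelled EB 1 (up to 0.0899), SPRY4 without any single EB array (up to 0.193), EGR1 without H1 EB 1, H1 EB 2 or H9-labelled EB 2 (up to 0.233), SPRY1 without any single EB array (up to 0.0797) and DUSP6 without H1 EB 1, H9-labelled EB 1 or H9-labelled EB 2 (up to 0.212).

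The retinoid list held 4 genes called higher and 2 lower of 17. Besides RBP4, described among the serum carriers, CRABP2, which brings retinoic acid to its receptor, read 1979 and 2078 in H1 EB and 3572 and 3519 in H9-labelled EB (difference 0.80 ± 0.14, adjusted p = 0.00587). STRA6, the receptor through which cells take retinol from RBP4, was at 283 and 293 against 464 and 522 (difference 0.74 ± 0.13, adjusted p = 0.0052). NR2F1, itself retinoid-responsive, and NRIP1 (0.44, adjusted p = 0.00785) were the other members called higher. With all probe sets averaged STRA6 and NRIP1 lost their calls. STRA6 also lost its call without probe sets of the suffixes _x_at and _s_at. The degrading enzyme CYP26A1 was not called at 883 and 946 against 926 and 896 (adjusted p = 0.988). Leaving out 1 EB array ended the calls of CRABP2 without H1 EB 1 (adjusted p up to 0.0506), STRA6 without H9-labelled EB 2 (up to 0.053) and NRIP1 without H1 EB 1 or H9-labelled EB 1 (up to 0.0853).

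Matrix genes were called in both directions, 9 higher and 5 lower of 36. THBS2, thrombospondin 2, read 344 and 288 in H1 EB and 606 and 722 in H9-labelled EB (difference 1.03 ± 0.12, adjusted p = 3.94e-04), and COL9A3, a cartilage collagen, 397 and 552 against 893 and 699 (difference 0.73 ± 0.16, adjusted p = 0.0133). COL1A2 was higher (10421 and 10676 against 15525 and 14534, difference 0.51, adjusted p = 4.37e-04) while COL1A1, which pairs with it in type I collagen, was not called (difference -0.14, adjusted p = 0.145). Periostin, POSTN, was lower at 3137 and 3077 in H9-labelled EB against 4617 and 5182 (difference -0.65 ± 0.12, adjusted p = 0.00597), as were LUM, lumican (-0.61, adjusted p = 0.0196), and COL3A1 (-0.61, adjusted p = 0.0238). LUM and COL3A1 were lower still in undifferentiated H9 than in H1, with differences of -3.25 and -3.21. Without probe sets of the suffixes _x_at and _s_at COL3A1 turned to 0.22, and with an EB array left out the calls were lost for COL9A3 without H1 EB 1 or H9-labelled EB 1 (adjusted p up to 0.112), POSTN without H1 EB 2 (up to 0.062), LUM without H1 EB 1, H1 EB 2 or H9-labelled EB 2 (up to 0.134) and COL3A1 without any single EB array (up to 0.119).

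Actin and YAP response genes were called higher in 7 of 21 and lower in 0. CCN2, a YAP target, read 1194 and 1310.2 in H1 EB and 1895 and 1927 in H9-labelled EB (difference 0.61 ± 0.067, adjusted p = 3.49e-04), and its relative CCN1 990.1 and 1071 against 1381 and 1359 (difference 0.41 ± 0.066, adjusted p = 0.00311). AXL, a receptor kinase, was higher by 0.49 (adjusted p = 0.00415) and MYL9, a myosin light chain, by 0.62 (adjusted p = 0.0093). In H1 EB all 4 were below undifferentiated H1, CCN2 by the most, at 7185 and 6659 in undifferentiated H1. The call was lost for MYL9 without H1 EB 2 or H9-labelled EB 2 (adjusted p up to 0.0797), and averaging all probe sets ended that of AXL (adjusted p = 0.0685).

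Hypoxia and glycolysis genes leaned lower: 7 of 27 were called lower, against 7.23% of all genes, and 1 was called higher, with a median of -0.031. HK2, the inducible hexokinase, read 3436 and 2799.5 in H1 EB and 1589.6 and 1723 in H9-labelled EB (difference -0.90 ± 0.10, adjusted p = 3.82e-04). ANKRD37, a sensitive HIF target, was at 258 and 304 against 177 and 139 (difference -0.78 ± 0.16, adjusted p = 0.00846), and P4HA1, a collagen prolyl hydroxylase, at 4426 and 4585 against 3021 and 2623 (difference -0.68 ± 0.11, adjusted p = 0.00406). Core glycolytic enzymes such as ALDOA (0.02), TPI1 (0.049) and PGAM1 (-0.031) were not called. With 1 EB array left out 2 to 4 of the list were called lower, and the call was lost for ANKRD37 without H1 EB 2 or H9-labelled EB 2 (adjusted p up to 0.0697). Averaging all probe sets ended that of P4HA1 (adjusted p = 0.138).

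Sterol synthesis genes were called lower in 5 of 17, including INSIG1 (-0.42 ± 0.06, adjusted p = 0.00159), HMGCS1 (-0.31 ± 0.049, adjusted p = 0.00278) and STARD4 (-0.31 ± 0.06, adjusted p = 0.00659), and SCD was called higher. The called differences were under 0.5 in size. In undifferentiated cells 9 of the 17 were called higher in H9 and 0 lower, INSIG1, HMGCS1 and STARD4 among them. Amino acid and unfolded protein response genes were called higher in 6 of 25 and lower in 1: SLC7A11, the cystine transporter, read 2150.4 and 2086 against 3163 and 3203 (difference 0.58 ± 0.086, adjusted p = 0.00195), and ASNS, asparagine synthetase, differed by 0.31 (adjusted p = 0.0046). Cell cycle genes were called lower in 6 of 33 and higher in 3, all under 0.5 in size, among them AURKA (-0.28, adjusted p = 0.0118) and MKI67 (0.47, adjusted p = 0.0481) in opposite directions. Of 9 tested housekeeping genes, 4 were called higher, 0 lower, with a median of 0.19. All 9 had H9-labelled arrays above the H1 arrays, against 32.8% of all tested genes. GAPDH was among them at 18540 and 18526 in H1 EB and 24341 and 23791 in H9-labelled EB (difference 0.38 ± 0.058, adjusted p = 0.0024), a call lost under quantile normalization (adjusted p = 0.193). GUSB turned from 0.22 to -0.48 when all its probe sets were averaged. All probe sets averaged also ended the calls of INSIG1, HMGCS1 and ASNS (adjusted p of 0.0659, 0.116 and 0.809). The part of such a shift in small positive differences elsewhere was not tested. Calls that needed every EB array or most of them were those of STARD4 without H1 EB 1 or H9-labelled EB 2 (adjusted p up to 0.0598), SCD without H1 EB 1, H1 EB 2 or H9-labelled EB 1 (up to 0.126), AURKA without any single EB array (up to 0.0766), MKI67 without any single EB array (up to 0.191) and GUSB without any single EB array (up to 0.174).

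Some of the largest differences were already there before differentiation. NLRP2, a germline and embryo member of the NLR family whose expression differs between stem cell lines, read 84.5 and 75.3 in H1 EB and 2207 and 2420.3 in H9-labelled EB, at least 23.3-fold higher (adjusted p = 7.74e-10). In undifferentiated cells it was 160.2 and 166 in H1 and 4348 and 4457 in H9. HLA-DQB1, a class II antigen-presenting chain, read 167 and 142 in H1 EB and 769 and 769 in H9-labelled EB (difference 2.21 ± 0.13, adjusted p = 8.61e-06), almost the same difference as before (2.15); HLA genes are highly polymorphic, and a probe set can read alleles unequally. PLA2G2A, a secreted phospholipase, was at 69.7 and 88.1 in H1 EB and 836 and 801 in H9-labelled EB (difference 3.14 ± 0.21, adjusted p = 1.55e-05), a larger difference than the 1.95 in undifferentiated cells (adjusted p = 0.015 for the contrast of the 2). CALCB, which encodes a calcitonin gene-related peptide, read 169 and 135 against 728 and 565 (difference 1.97 ± 0.15, adjusted p = 4.63e-05).

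Zinc finger genes of the KRAB family went both ways. ZNF681 read 120.3 and 108 in H1 EB and 433 and 439.8 in H9-labelled EB (difference 1.80 ± 0.16, adjusted p = 8.36e-05), with 91.5 and 128 against 748 and 725 in undifferentiated H1 and H9. ZNF717 was dim in H1 EB and at least 2.22-fold higher in H9-labelled EB (adjusted p = 3.75e-04), a call lost with all its probe sets averaged (adjusted p = 0.0526). ZNF680 ran the other way at 1134 and 1153 against 301 and 197 (difference -2.16 ± 0.16, adjusted p = 3.86e-05), smaller in size than its undifferentiated difference of -4.57. ZNF107 kept nearly its whole difference, -1.14 in EB and -1.41 in undifferentiated cells. LOX, the collagen cross-linking enzyme, was lower in H9-labelled EB at 182 and 137 against 444 and 435 (difference -1.39 ± 0.21, adjusted p = 0.00219) and lower by a like amount before (-1.64).

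**Figure D3:**
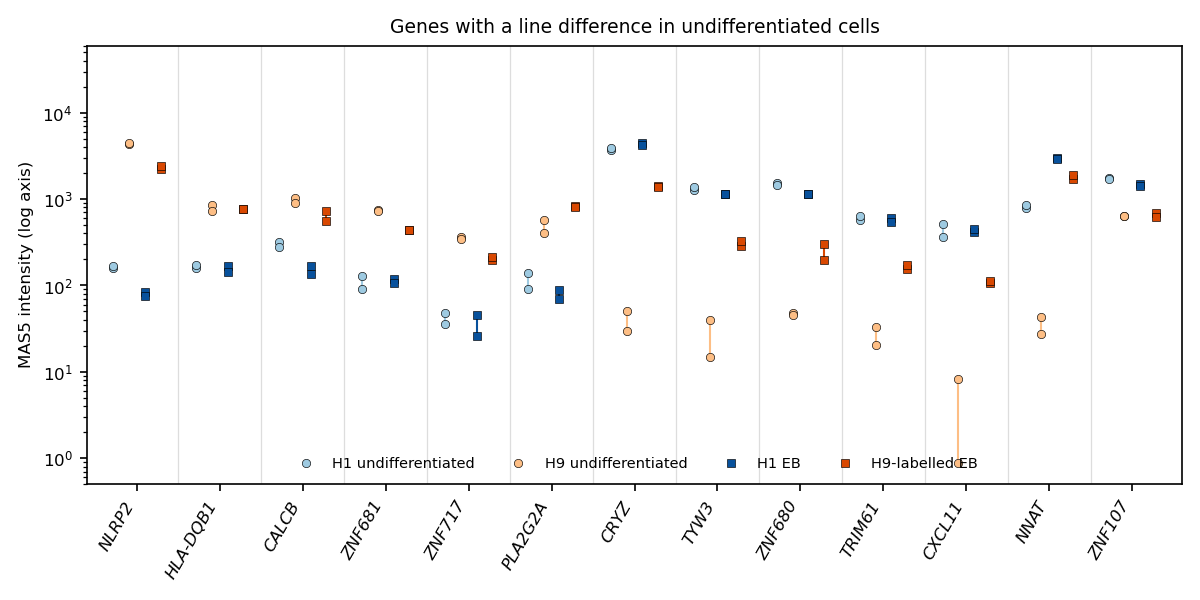
MAS5 intensity (log axis) on each of the 8 arrays for 13 genes with a line difference in undifferentiated cells, circles for undifferentiated cells and squares for EB. For CRYZ, TYW3, ZNF680, TRIM61 and CXCL11 the H9-labelled EB squares lie between the low undifferentiated H9 circles and the H1 arrays, and for NLRP2 they lie at 2207 and 2420.3, below undifferentiated H9 at 4348 and 4457.

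Interferon-related and antigen presentation genes were called higher in 7 of 25 and lower in 2. BST2, tetherin, read 1527 and 1569 in H1 EB and 2769 and 2667 in H9-labelled EB (difference 0.81 ± 0.09, adjusted p = 3.73e-04), PSMB8, an immunoproteasome subunit, 147 and 137 against 283 and 234 (difference 0.79 ± 0.12, adjusted p = 0.00226), and IFITM3 6043 and 5909 against 8905 and 8652 (difference 0.55 ± 0.05, adjusted p = 9.47e-05). The chemokine CXCL11 was lower, at 418 and 445 against 108 and 113 (difference -1.82 ± 0.23, adjusted p = 8.37e-04), a call lost with a pseudocount of 1 (adjusted p = 0.0585). Imprinted genes, expressed from one parental copy, were called lower in 4 of 20 and higher in 2. NNAT, neuronatin, read 2995 and 2937 in H1 EB and 1713 and 1889 in H9-labelled EB (difference -0.72 ± 0.14, adjusted p = 0.0068), although it had been near silent in undifferentiated H9 at 43.7 and 27.4 against 785 and 865 in H1. CDKN1C, a cell cycle inhibitor, was at 5532 and 5574 against 3900.4 and 3566 (difference -0.57 ± 0.072, adjusted p = 8.23e-04), and IGF2R at 2514 and 2759 against 3855 and 3572 (difference 0.49 ± 0.12, adjusted p = 0.0211). Losses with an EB array left out were NNAT without H1 EB 1 or H9-labelled EB 1 (adjusted p up to 0.0675) and IGF2R without any single EB array (up to 0.134).

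Over the 13529 tested genes the line differences in EB and those in undifferentiated cells, which share no arrays, correlated at Pearson's r = 0.0747 and a Spearman rank correlation of -0.037, as a description over genes that are not independent. Their spread was narrower in EB, with an SD over genes of 0.32 against 0.42, and fewer genes were called, 2025 against 3516 (26.0%). Of the genes called in both states, 390 had the same direction and 455 the opposite one. A further 1180 were called in EB and not in undifferentiated cells, and for 668 of these the line difference itself differed between the states by the test of that difference.

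The plot of both line differences shows where named genes fall. TFAP2B, NR2F1, GREM1 and THBS2 were called lower in undifferentiated H9 and higher in H9-labelled EB, while OTX2 and CDKN1C were called higher first and lower in EB. RBP4 was called in the same order, but it was dim in both undifferentiated lines. It read 28.1 and 16.1 in undifferentiated H1 and 34 and 41.7 in undifferentiated H9 (adjusted p = 0.0487). MIR181A2HG, the host transcript of a microRNA, was faint in both undifferentiated lines and in H1 EB (12.6 and 6.77) and read 129 and 111 in H9-labelled EB, at least 1.36-fold higher (adjusted p = 0.0056). SEMA4A, a semaphorin, was dim in H1 EB at 20.1 and 59.9 and read 209 and 205 in H9-labelled EB, near the 275 and 232 of undifferentiated H9, at least 2.23-fold higher (adjusted p = 0.00209). PHACTR3, an actin and phosphatase regulator, was at least 1.71-fold higher (adjusted p = 0.0028), and S100A8, a calcium-binding protein of myeloid and epithelial cells, at least 2.58-fold (adjusted p = 0.0049). Only in H9-labelled EB did MIR181A2HG, PHACTR3 and S100A8 lie above the array median, which let them be tested. ANO7, of the anoctamin family, was at least 1.16-fold higher (adjusted p = 0.0052), and U2AF1L4, a splicing factor relative, differed by 1.20 ± 0.21 (adjusted p = 0.00393). Losses with an EB array left out were MIR181A2HG without H9-labelled EB 1 (adjusted p up to 0.0682), S100A8 without H9-labelled EB 2 (up to 0.05) and ANO7 without H9-labelled EB 1 (up to 0.0585).

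**Figure D4:**
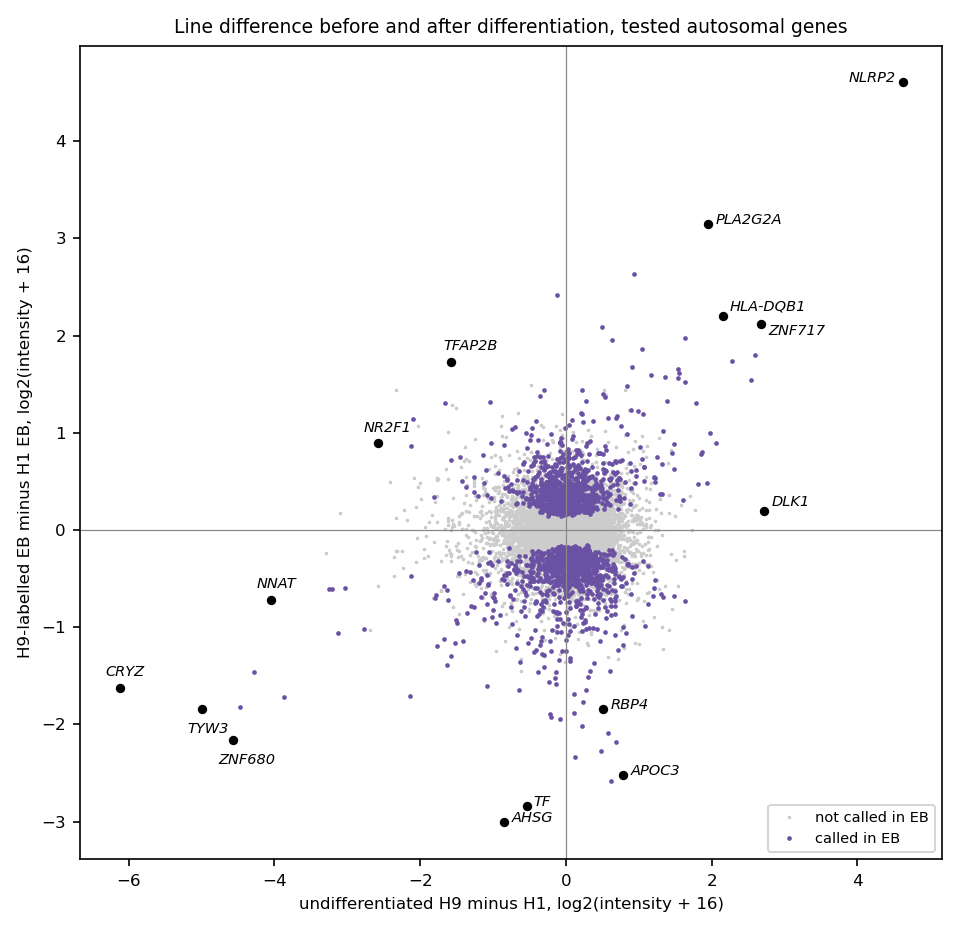
Line difference in undifferentiated cells (x axis) against that in EB (y axis), both H9 minus H1 on log2(intensity + 16), for each of the 13529 tested autosomal genes, with genes called in EB in purple and named genes in black. The fitted values of AHSG at -3.00 and NLRP2 at 4.60 mark the ends in EB, and CRYZ at -6.13 the far left.

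Along the chromosomes, medians of the EB difference over whole autosomes ran from -0.048 on chromosome 4 to 0.048 on chromosome 20. In running medians of 41 neighbouring tested genes, ordered by the RefSeq gene table, the highest was 0.28 on chromosome 20, from CST1 to CHMP4B with PDRG1 at its middle. The stretches were found by searching these data, so their values are a description. There 15 of the 41 genes were called higher and 0 lower, against 7.74% of all genes called higher, and 34 were above 0; the undifferentiated median of the same genes was 0.14. With 1 EB array left out the median was 0.22 to 0.30 and 8 to 11 genes were called higher. Called genes there include ID1, DNMT3B, TPX2, a spindle factor (0.33, adjusted p = 0.0216), ASXL1, a chromatin regulator (0.43, adjusted p = 0.0137), and COMMD7 (0.66, adjusted p = 1.03e-04). BCL2L1, a survival gene, lies in the stretch and was not called (-0.052 ± 0.092, adjusted p = 0.76). Part of this stretch lies in a region known for recurrent gain in cultured human embryonic stem cells. Copy number was not measured, and its part was not tested. Calls were lost for ASXL1 without any single EB array (adjusted p up to 0.0881) and TPX2 without H1 EB 1, H9-labelled EB 1 or H9-labelled EB 2 (up to 0.166). The lowest running median was -0.24 on chromosome 11, from LDHC to LINC00294, where 10 genes were called lower and 2 higher, and where undifferentiated H9 stood above H1 with a median of 0.15. PAX6 and BDNF, a neurotrophin (-1.03 ± 0.19, adjusted p = 0.00544), are among the 10. With 1 EB array left out 3 to 6 were called lower and the median was -0.27 to -0.21, and the call was lost for PAX6 without any single EB array (adjusted p up to 0.228). BDNF lost its call without probe sets of the suffixes _x_at and _s_at (adjusted p = 0.13). Of 12649 running medians, the first to 99th percentile spanned -0.135 to 0.135; neighbouring medians share most of their genes.

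**Figure D5:**
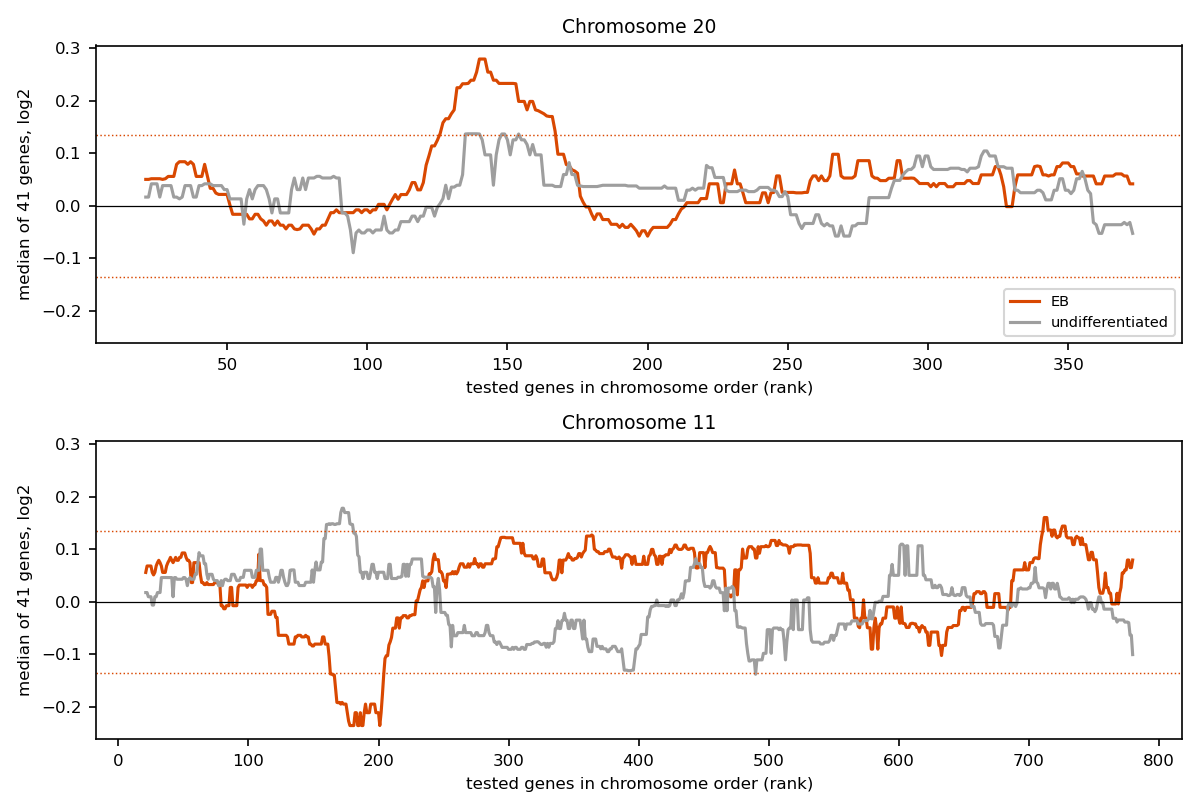
Running median of the line difference over 41 tested genes (y axis, log2) along chromosomes 20 and 11, by rank of the gene in chromosome order (x axis), for EB in orange and undifferentiated cells in grey, with dotted lines at the first and 99th percentile of all EB running medians. The EB line peaks at 0.28 on chromosome 20 and falls to -0.24 on chromosome 11.

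Cells that such cultures should lack were looked for by their markers. Of 10 autosomal blood markers 7 were dim in H1 EB and 8 in H9-labelled EB, PTPRC, CD14 and CD3E among those not tested, and the list summed to 585 and 762 in H1 EB and 448 and 408 in H9-labelled EB. The lysozyme gene LYZ was the one called, dim in H9-labelled EB and at least 1.64-fold lower than in H1 EB at 141 and 159 (adjusted p = 0.0422). Endothelial markers were dim in 5 of 10 in H1 EB and 6 in H9-labelled EB, with CDH5 not tested; TEK, an angiopoietin receptor, was called lower (701 and 649 against 304 and 317, adjusted p = 2.11e-04). The other 4 endothelial genes tested were not called, 3 with H9-labelled arrays wholly above the H1 arrays and 1 wholly below, and the list median was 0.32. The 12 fibroblast markers, which early mesenchyme also expresses, summed to 50337 and 49964 in H1 EB and 47203 and 45648 in H9-labelled EB, against 25067 and 24112 in undifferentiated H1 and 17228 and 17148 in undifferentiated H9. Gene by gene the list was mixed: of 11 tested, 1 was called higher and 3 lower, 6 lay wholly higher and 4 wholly lower, and the median was 0.11. Of 13 markers of mature tissues 8 were dim in each EB group. The part of such cells in the differences above was not tested. Calls were lost for LYZ without any single EB array (adjusted p up to 0.221), and for TEK when all its probe sets were averaged (adjusted p = 0.724).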

How the data were processed

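The authors deposited linear MAS5 intensity values of 54675 probe sets on 8 arrays, with MAS5 named in the submitters' processing notes without a version. After leaving out 62 control probe sets, 41091 had 1 gene symbol in GEO's platform annotation, 1801 several and 11721 none; 41037 of those with 1 symbol matched RefSeq by Entrez identifier. Each of 19775 genes was read by 1 probe set, that of the highest mean log2 value, and a gene was tested if it lay above the array's own median on at least 2 of 8 arrays. Some genes passed only through the EB group where they were high, and their adjusted p does not allow for this. Through H1 EB these include ALB, HOXC6, LYZ, LGALS2, SERPIND1, SLC39A2 and SULT2A1. Through H9-labelled EB they include GBX2, MIR181A2HG, PHACTR3 and S100A8. Intensities plus a pseudocount of 16 were taken to log2 and fitted with limma 3.58.1 in R 4.3.3 (4 group means, eBayes with trend and robust, 4 residual degrees of freedom), with Benjamini-Hochberg adjustment. The undifferentiated arrays enter the fit for their spread, and the script was tested on simulated data. A probe set below its array's median on both arrays of a group has only a bound there; its fold is then given as "at least", from the brighter group's mean over the dim group's array median or, if higher, its measured value.

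Genes were named by rule: the largest differences in each direction among all genes, among genes differing between states and among genes alike in both, up to 3 called genes of each of 30 lists, and 3 pluripotency markers. Other list members and genes said to be picked were chosen after their values were seen. Members and lists were chosen with earlier results of these data known. Alternatives covered scaling, pseudocount, filter, probe sets, variance model, samples and pairing. Chromosome order and promoters are from RefSeq. Genes on the sex chromosomes are not reported here.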

Additional observations from a re-analysis of the deposited data

Results flagged for a closer look

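For 68 of the 105 genes named by rule, the line difference in EB differed from the line difference in undifferentiated cells (limma test of that contrast, adjusted p under 0.05). The same test called 22.7% of all tested genes. Some of the 105 were named because it called them and others because it did not, so the shares cannot be compared. Each value below is the EB difference minus the undifferentiated difference on the log2(intensity + 16) scale. Genes chosen for large EB differences meet this test more easily than others, and the causes were not tested.

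Among secreted hepatic and gut-type proteins the contrast was -3.31 for APOC3, -3.20 for LGALS2, -2.75 for APOA4, -2.66 for SERPIND1, -2.46 for SERPINA1, -2.36 for RBP4, -2.30 for TF, -2.16 for AHSG, -2.003 for ALB, -1.99 for SULT2A1 and -1.86 for FABP1. SLC39A2 stood at -2.23, MMP1 at -1.72 and the endoderm factor SOX7 at -0.86, while CLDN6 was at 0.32.

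Crest, neural and axial genes were on both sides. The contrast was 3.47 for NR2F1, 3.31 for TFAP2B, 2.35 for GBX2, 1.76 for ONECUT2, 0.98 for SOX10, 0.82 for FOXD3, 0.41 for SOX2 and 0.40 for TUBB3. It was -2.86 for RAX2, -2.02 for SIX3 and -1.06 for HOXB3. Of mesoderm and trophoblast genes, HAND1 had -0.98 and IGFBP3 -0.94.

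Of signalling and pluripotency genes, NODAL had 1.81, WNT4 1.74, GREM1 1.72, LEFTY1 1.27, BOC 1.20, WLS 1.15, WIF1 1.10, NOTCH1 0.80, PRDM14 0.72 and CDON 0.64. LINC00458 had -1.78, BMP6 -0.97 and SPRY1 -0.43.

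Matrix and actin genes had positive values, with LUM at 2.64, COL3A1 at 2.60, THBS2 at 1.77, CCN2 at 1.24 and AXL at 0.50. In metabolism and the cell cycle SLC7A11 had 1.52 and GAPDH 0.41, whereas ANKRD37 had -1.45, HK2 -1.11, P4HA1 -1.11, INSIG1 -1.10, VLDLR -1.01, HMGCS1 -0.76, STARD4 -0.69 and AURKA -0.50.

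The remaining genes were NNAT at 3.33, CXCL11 at 2.65, MIR181A2HG at 2.54, ZNF680 at 2.42, ANO7 at 1.74, SEMA4A at 1.59, PLA2G2A at 1.19, IGF2R at 1.02, U2AF1L4 at 0.99, ZNF681 at -0.79, BST2 at -1.06 and CDKN1C at -1.33. For NNAT, LUM, COL3A1, CXCL11 and ZNF680 the undifferentiated lines were farther apart than the EB. Groups of 2 arrays are too small to look for single arrays that stand apart.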

How the results depend on the processing

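Requiring a log2 difference of at least 1 left 53 genes called higher and 81 lower in EB, 372 called in undifferentiated cells and 523 in the contrast of the 2 states. Averaging every probe set of a gene, these counts were 488, 498, 2248 and 1670. Without probe sets of the suffixes _x_at and _s_at, 666 genes were called higher and 691 lower of the 10663 left to test. With a variance model that has no trend and no robust step, 374 were called higher and 451 lower, and 1937 in the contrast of the states. Leaving out each of the 8 arrays in turn gave 303 to 1201 higher, 328 to 1071 lower and 1948 to 2999 in the contrast, the low counts coming from leaving out EB arrays. Fitting the 4 EB arrays alone gave 1461 and 1318. Of the 105 named genes 103 were called, and many of these lost their call when 1 EB array was left out. Under all alternatives in which they were tested, other than the minimum difference, 36 kept theirs. Some of the 36, AHSG, TF, NLRP2 and FOXD3 among them, were not tested in every alternative. Averaging every probe set ended the calls of 29 named genes, among them FOXA1, SOX7, SIX3, SLC40A1, CLDN4, POSTN, ANKRD37 and MYL9. The cause of these losses was not tested, apart from the smaller number of arrays or genes.

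Reversed values were COL3A1 at 0.22 (adjusted p = 0.761) without such probe sets, GUSB at -0.48 (adjusted p = 0.164) and SOX2 at -0.054 (adjusted p = 0.713) with all probe sets averaged, and LIN28A at -0.14 (adjusted p = 0.0433) after quantile normalization. The share of calls that were higher was 51.7% and ranged from 45.3% to 52.9%.

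The labels number the arrays 1 and 2 in every group without saying whether same-numbered arrays share a culture or day. Deviations of same-numbered arrays correlated at -0.0461 to 0.0542 over genes, which shows no shared deviation and cannot decide how they were numbered. With the replicate number as a block, 989 genes were called higher and 922 lower.

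With 2 arrays a group, their number limits precision, and genes near the array median carry mostly background. Values come from MAS5, and no probe-level files were used here.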
